A study of Mus musculus with 20 samples.

Results

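The set described here is the DNA replication machinery of mouse cells: 43 genes chosen by symbol for their known place at the replication fork or in its assembly by a rule that uses no measured value, though with earlier results of these data known. All 43 were measured, out of 18193 genes with 1 symbol on the arrays, each by its brightest probe set on average over the 20 arrays. The set holds 6 subunits of the MCM helicase, 9 genes of origin licensing, 6 of helicase activation, 9 of the DNA polymerases and primase, 6 of the sliding clamp and its loader, 3 of single-strand binding, 2 of lagging strand joining and 2 of ribonucleotide reductase.

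The series asked, by its title, how pluripotency arises in unipotent germline stem cells of adult mice, and it profiled 20 RNA samples in 6 groups. Germline pluripotent stem cells (gPS, 5 arrays) came from germline stem cells kept in vitro without passage until round colonies with a bright green fluorescent signal appeared within 3 to 4 weeks, and these colonies were picked by hand and expanded on feeder cells in medium for embryonic stem cells. Their parent germline stem cells (GSC, 3 arrays) were grown from testes of the OG2 strain, B6;CBA-Tg[Pou5f1-EGFP]2Mnn/J, which carries a green fluorescent reporter driven by Oct4, so that gPS and GSC share this transgene, and they were maintained on fibroblasts inactivated with mitomycin C. ESC_like cells (3 arrays) came from testis of postnatal day 0 to 2, were supplied by another laboratory and were grown on fibroblast feeders with leukemia inhibitory factor (LIF), with no strain given. Neural stem cells (NSC, 3 arrays) were derived from Olig2-GFP embryonic stem cells. Mouse embryonic fibroblasts (MEF, 3 arrays) were prepared from C3H embryos of stage E12.5, and the labels do not say whether these were inactivated or dividing. Embryonic stem cells (ESC, 3 arrays) were the RW4 line on fibroblast feeders with LIF. The labels do not say whether arrays of a group were separate lines, clones, animals or cultures, so the p-values cover the variation among the arrays alone, which may be technical.

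Before a cell can copy its DNA, the origin recognition complex, Cdc6 and Cdt1 load the ring-shaped MCM helicase onto chromatin in an inactive form, a step called licensing. Cdc45 and the GINS complex then join the ring to make an active helicase, polymerase alpha and primase lay down short primers, and polymerases delta and epsilon extend the strands on the PCNA clamp, while RPA covers the single strands and ribonucleotide reductase supplies deoxynucleotides. Many of these genes are known targets of the E2F transcription factors, which pocket proteins such as Rb hold in check outside the dividing cycle, and embryonic stem cells are known for a short cycle with a large share of cells in S phase.

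The promoters of several members hold the letters of an E2F site, shown here because control by E2F is well known for this group of genes. RefSeq promoter sequences (GRCm38.p6, 250 bases before to 50 after the start) were given for 35 of the 43 genes. The letters TTTCCCGC, TTTCGCGC, TTTGCCGC and TTTGGCGC were searched on both strands, and at least 1 was found for 15 of the 35 members (42.9%), against 3.81% of the 14452 genes with a promoter that were tested on the arrays and 2.26% of all 32851 promoter entries. The shorter letters CCAAT were found for 23 of 35 members (65.7%), against 42.0% of the tested genes, and TTTGAA, the cell cycle element named CHR, for 5 of 35 (14.3%), against 15.7%. The E2F search letters do not contain CCAAT or TTTGAA. The lines below give, with the E2F letters in capitals, the stretch around the match for 5 members, 5′ to 3′ on the strand of the gene. Each ends before the start of its promoter entry: Mcm5 (chr8:75109334-75109389, plus strand), Mcm6 (chr1:128359723-128359837, minus strand), Mcm7 (chr5:138172019-138172070, minus strand), Orc1 (chr4:108579405-108579453, plus strand) and Cdc6 (chr11:98907991-98908042, plus strand). For Mcm7, Orc1 and Cdc6 that start lies inside the annotated gene, and so does the stretch. In Mcm5 and in the first match of Mcm6, overlapping matches on both strands run together as 1 block of capitals.
Mcm5: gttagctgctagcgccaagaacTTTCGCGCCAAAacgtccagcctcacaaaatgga
Mcm6: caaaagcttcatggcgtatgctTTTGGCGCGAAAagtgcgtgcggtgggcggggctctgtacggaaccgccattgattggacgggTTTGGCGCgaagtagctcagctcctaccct
Mcm7: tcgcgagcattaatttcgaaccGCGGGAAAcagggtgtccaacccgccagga
Orc1: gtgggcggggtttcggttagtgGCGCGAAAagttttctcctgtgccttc
Cdc6: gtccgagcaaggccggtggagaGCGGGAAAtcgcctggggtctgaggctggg
For Rrm2, the gene with the largest difference in the set, none of the E2F letters was found, and the 250 bases before its start (chr12:24708004-24708253, plus strand) are given with its CCAAT in capitals.
Rrm2: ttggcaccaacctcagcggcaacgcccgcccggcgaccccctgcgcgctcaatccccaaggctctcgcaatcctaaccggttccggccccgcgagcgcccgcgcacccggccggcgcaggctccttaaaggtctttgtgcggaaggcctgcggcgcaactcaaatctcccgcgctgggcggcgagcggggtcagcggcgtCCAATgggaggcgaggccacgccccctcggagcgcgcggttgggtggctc

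Values are log2 intensities on a common scale, on which 1 unit is a 2-fold change. A comparison called a gene where limma, fitted to all 20 arrays, gave a p under 0.05 after Benjamini-Hochberg adjustment across the 18193 genes and the groups differed at least 2-fold. Differences are log2 differences of group means, with limma's standard error (SE). Array medians over all probe sets lay between 4.95 and 5.04, and the members' values between 6.23 and 13.33. The groups carried the markers of their labels: the median of 7 pluripotency genes was 11.39 to 12.00 in gPS, 11.80 to 11.86 in ESC_like and 12.04 to 12.18 in ESC, against 7.41 to 8.01 in GSC, 3.58 to 3.65 in NSC and 3.55 to 3.90 in MEF, while the germ line list was between 10.98 and 11.23 in GSC and the neural list between 10.47 and 10.75 in NSC. Fibroblast markers also differed between cultures other than MEF: the median of 10 fibroblast genes was 6.86 to 7.91 in gPS, 6.66 to 6.75 in GSC, 9.07 to 9.48 in ESC_like, 6.03 to 6.18 in NSC, 11.44 to 11.50 in MEF and 4.18 to 4.52 in ESC. Against ESC, 10 of 10 were called higher in MEF and ESC_like, 9 in gPS, 8 in GSC and 7 in NSC, where 1 was called lower. The summed linear intensity of 5 macrophage genes was 213 to 655 in gPS, 2165 to 2348 in GSC, 1265 to 1429 in ESC_like, 147 to 164 in NSC, 608 to 704 in MEF and 366 to 406 in ESC. Lyz2 alone of the 5 was called higher in GSC and in ESC_like than in ESC, and Ptprc (3.84 in GSC and 4.07 in ESC_like) and Adgre1 (5.36 and 5.48) were near the array medians or below. The summed intensity of 7 testis somatic genes was 1405 to 1984 in gPS, 371 to 479 in GSC, 5574 to 6505 in ESC_like, 409 to 481 in NSC, 16834 to 17758 in MEF and 387 to 452 in ESC, with Acta2, also a gene of fibroblasts, alone of the 7 called higher in ESC_like than in ESC and Wt1 alone in GSC. The part of these markers in the differences below was not tested. The 3′ minus 5′ signal of the Actb control probes was 1.25 for GSC replicate 1 and 0.12 to 0.57 on the other 19 arrays. Genes of chromosome 8 as a body were lower than in ESC, by a median of 0.30 to 0.34 log2 units in GSC, 0.33 to 0.35 in ESC_like, 0.36 to 0.40 in MEF and 0.19 to 0.26 in gPS replicates 1, 3, 4 and 5, but not in gPS replicate 2 or in NSC, and 6 members (Mcm5, Orc6, Cdt1, Gins2, Gins3 and Gins4) lie on it. These are RNA amounts of whole cultures, in which fewer cells in S phase and less RNA per cell cannot be told apart.

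Replication genes were highest in the pluripotent cultures and lowest in fibroblasts. The median over the 43 members was 9.83 to 10.23 in gPS, 9.57 to 9.67 in GSC, 9.70 to 9.79 in ESC_like, 9.31 to 9.36 in NSC, 8.75 to 8.84 in MEF and 9.92 to 9.95 in ESC. The ranges of the groups were apart, except that ESC lay inside the range of gPS. MEF had the lowest group mean for 29 of 43 members and GSC for 9, while ESC had the highest for 13, gPS and GSC for 9 each, and ESC_like for 6. A moderated F-test over the 6 groups (limma, adjusted over all genes) called 35 members with a range of group means of at least 1 log2 unit, or 81.4%, against 51.5% of all genes tested.

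**Figure D1:**
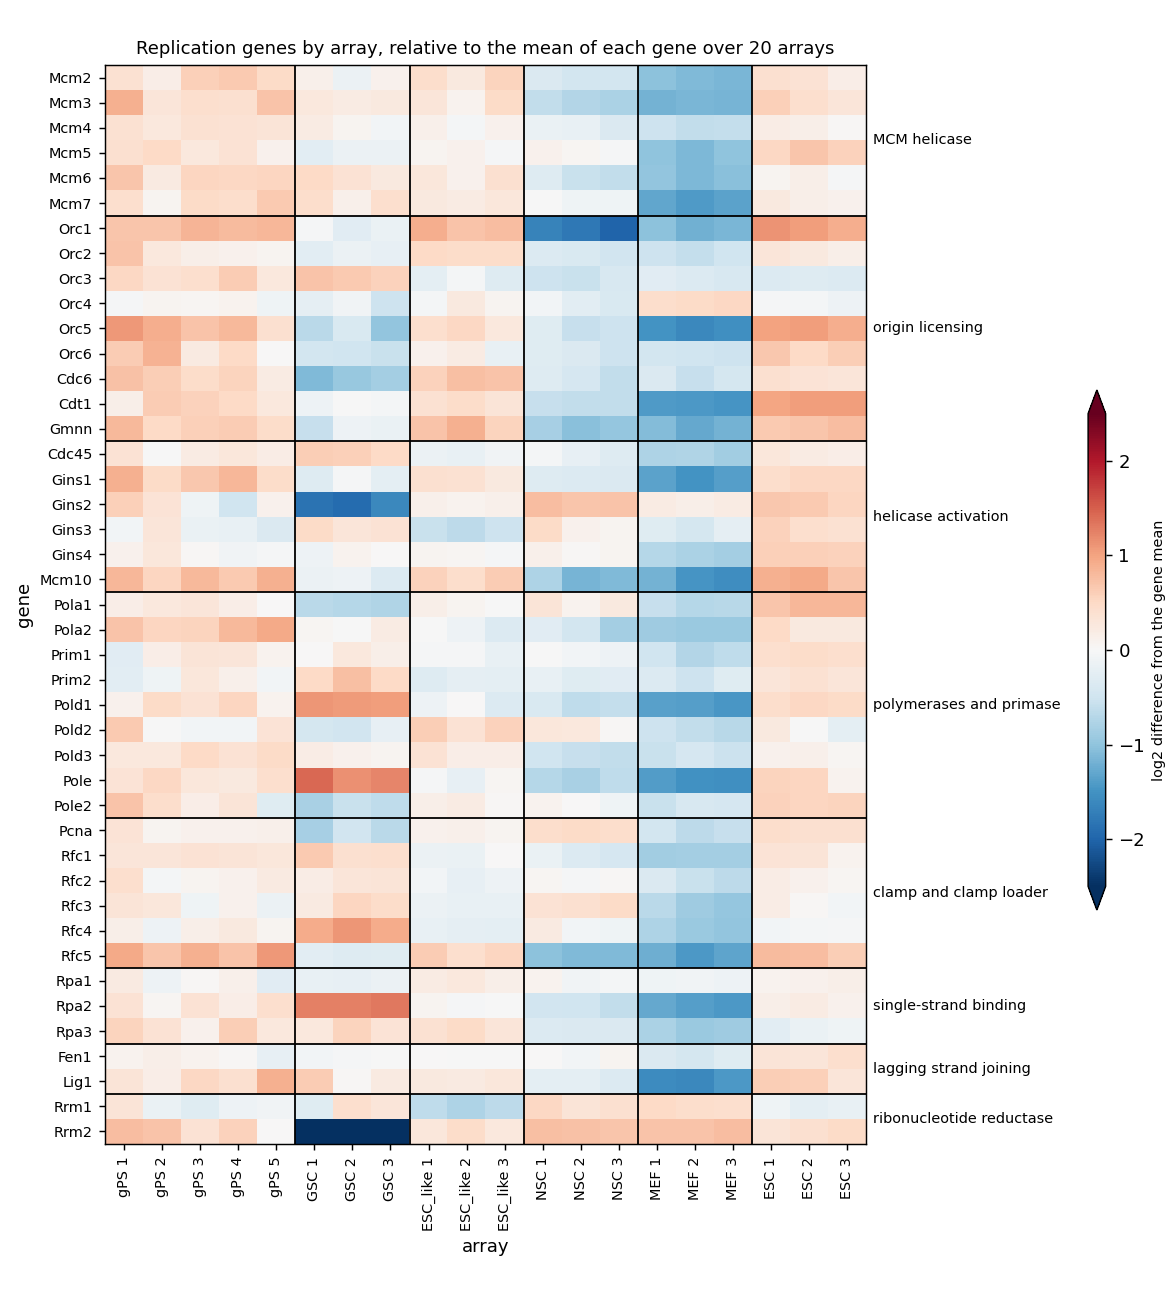
Log2 difference of each of the 43 replication genes on each of the 20 arrays from the mean of the gene over the 20 arrays, ordered by role, with vertical lines between the groups; the colour scale ends at 2.5 units, below which Rrm2 fell in GSC. MEF columns are blue for most genes, and GSC shows both blue rows (Rrm2, Gins2, Cdc6) and red rows (Pole, Rpa2, Pold1).

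Across 8 comparisons, 31 members were called at least once and 12 never were. The share of all genes called at least once was not counted, so these 2 numbers cannot be set against a background. Against ESC, MEF had 24 members called lower, or 55.8%, against 10.9% of all genes, and none higher, where 23.4% of all genes were called in either direction. NSC had 9 called lower against ESC, or 20.9%, against 10% of all genes, and none higher, against 11.4%. GSC had 13 called lower, or 30.2%, against 10.2% of all genes, and 2 higher, against 13.1%. Between gPS and GSC, 5 members were called higher and 1 lower in gPS, where the shares of all genes were 9.1% and 10.9%. At this 2-fold threshold the members' share higher, 11.6%, was near that background. Smaller shifts were more common among members: all gPS arrays lay above all GSC arrays for 22 (51.2%, against 19.2% of all genes). They lay below all GSC arrays for 8 (18.6%, against 22.3%). NSC had 7 called higher than MEF, or 16.3%, against 8.13% of all genes, and none lower, against 8.84%. Between gPS and ESC, and between gPS and ESC_like, no member passed, where 4.49% and 4.85% of all genes did. ESC_like had 1 member called against ESC, lower, or 2.33%, where 7.21% of all genes were called. At an adjusted p under 0.05 with no fold limit, 18 members were lower in ESC_like than in ESC, or 41.9%, against 13.1% of all genes, and 2 were higher, or 4.65%, against 15.1%.

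**Figure D2:**
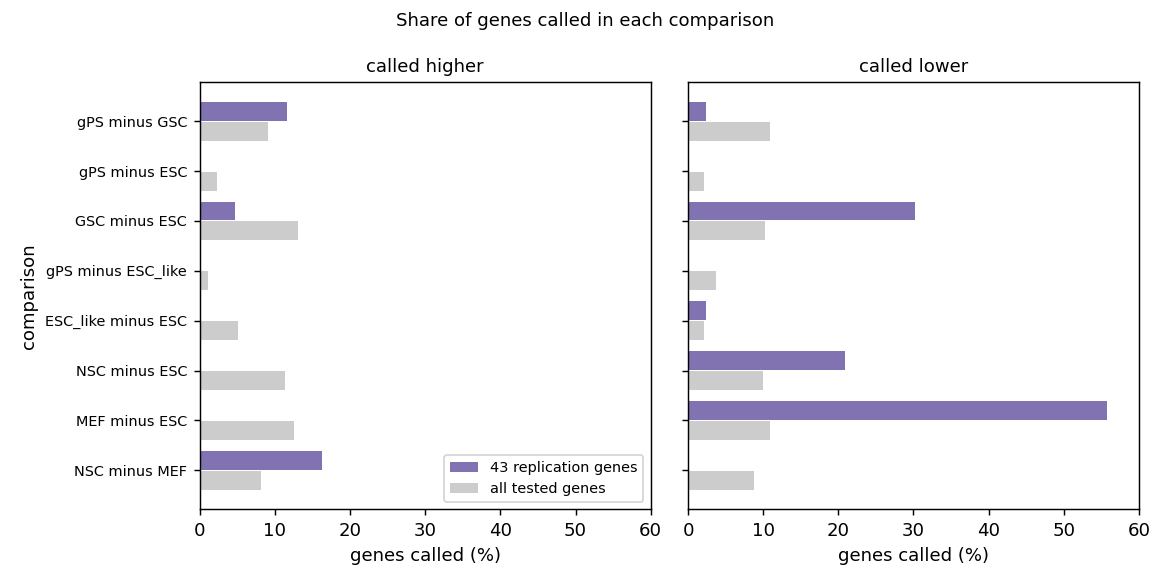
Percentage of genes called higher (left) and lower (right) in each of the 8 comparisons, for the 43 replication genes and for all 18193 genes tested. The longest bar is MEF minus ESC, lower, at 55.8% of the replication genes.

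The median difference over members was -1.05 for MEF minus ESC, -0.56 for NSC minus ESC, -0.27 for GSC minus ESC and -0.24 for ESC_like minus ESC, against -0.10, -0.10, -0.0012 and -0.09 over all genes. For gPS minus GSC it was 0.27, and for gPS minus ESC 0.03, with 0.02 over all genes in both. These comparisons share arrays, ESC above all, and are given side by side for that reason. All MEF arrays lay below all ESC arrays for 39 of 43 members (90.7%, against 36.2% of all genes), all NSC arrays below all ESC arrays for 33 (76.7%, against 34.2%), and all ESC_like arrays below all ESC arrays for 27 (62.8%, against 31.0%). All GSC arrays lay below all ESC arrays for 23 (53.5%, against 26.5%) and above them for 11 (25.6%, against 30.9%).

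**Figure D3:**
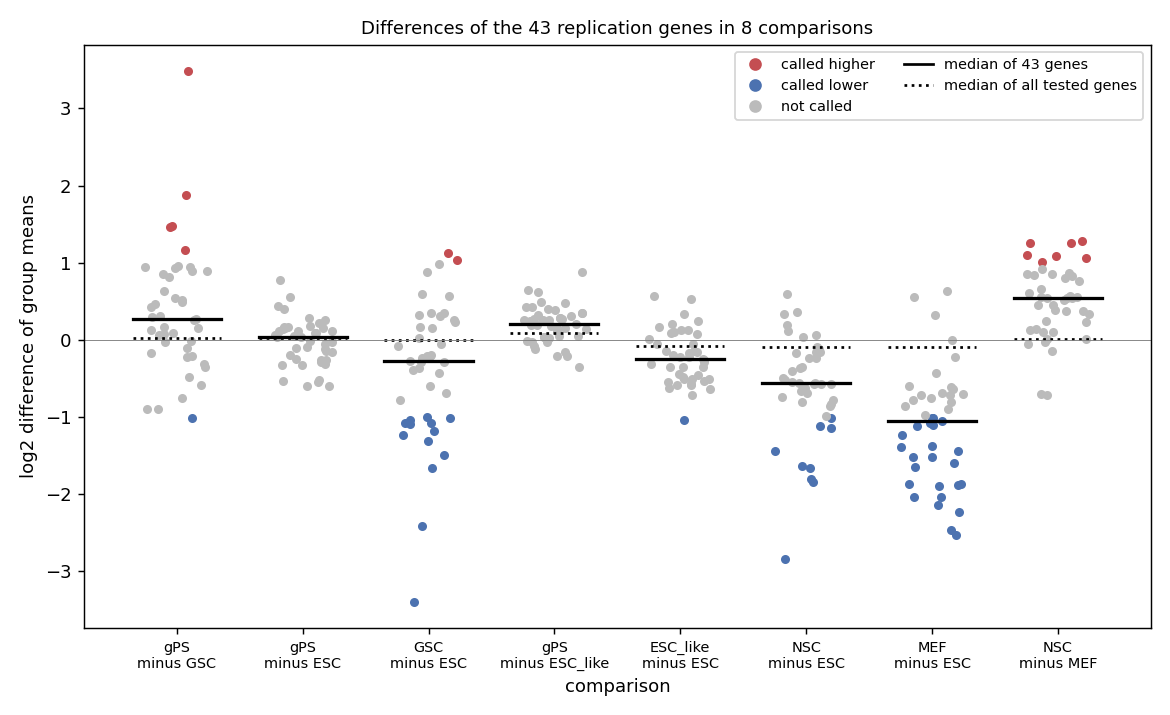
Log2 differences of group means for each of the 43 replication genes (points) in the 8 comparisons, coloured where called, with the median of the 43 genes (solid line) and of all genes tested (dotted line). Points for gPS minus ESC all lie within 1 unit of 0, while those for MEF minus ESC centre near -1.05.

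The MCM helicase, the motor that unwinds DNA at the fork, was called lower in MEF than in ESC for most subunits. The 6 subunits had a median pairwise correlation of 0.92 over the 20 arrays, the highest of the 8 roles, given as a description since arrays of a group share their cells. In MEF, 5 of 6 were called lower than in ESC, against 10.9% of all genes: Mcm5 by -1.65 (SE 0.10), Mcm3 by -1.60 (SE 0.14), Mcm7 by -1.52 (SE 0.12), Mcm2 by -1.39 (SE 0.13) and Mcm6 by -1.12 (SE 0.12). Mcm4 differed by -0.70 (SE 0.10) and did not reach 2-fold. The call for Mcm6 rests on its brightest probe set, since the others gave -0.35 to -0.08 and the average of all was -0.52 and not called.

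Mcm7 read 12.499, 12.15, 12.56, 12.52 and 12.73 in gPS cells, 12.51, 12.21 and 12.49 in GSC, 12.31, 12.27 and 12.37 in ESC_like cells, 12.07, 11.96 and 11.97 in NSC, 10.78, 10.65 and 10.73 in MEF, and 12.32, 12.22 and 12.17 in ESC. The MEF arrays lie more than 1 unit under every other array. Mcm7 was 2.42-fold higher in NSC than in MEF (adjusted p = 2.48e-08), the largest difference of that comparison among members. Mcm5 read 11.99, 12.08, 11.85, 11.93 and 11.69 in gPS cells, 11.31, 11.43 and 11.43 in GSC, 11.66, 11.69 and 11.54 in ESC_like cells, 11.68, 11.63 and 11.55 in NSC, 10.57, 10.45 and 10.57 in MEF, and 12.10, 12.27 and 12.16 in ESC. ESC lies above all other arrays, narrowly so over gPS, and MEF lies far below. Mcm5 was 2.13-fold higher in NSC than in MEF, and this call was lost, at a difference of 0.75, when the chromosome 8 shift was taken off. In NSC only Mcm3 of the helicase was called lower than in ESC, at -1.15 (SE 0.14), a call lost, at -0.97, when all probe sets of the gene were averaged. In GSC none was called, with a median of -0.12 over the 6, and the subunits differed in direction. All GSC arrays lay below all ESC arrays for Mcm2, Mcm3 and Mcm5 (-0.79), as for 26.5% of all genes. They lay above them for Mcm6 (0.31), as for 30.9% of all genes, and overlapped with them for Mcm4 and Mcm7. The separation of Mcm2 (-0.27) rests on its brightest probe set, since the other, at a mean level of 10.20, gave 0.07 with overlapping arrays. With probe sets averaged, Mcm5 was called in GSC, at -1.10.

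Origin licensing held the steepest differences outside ribonucleotide reductase. Its calls against ESC were 6 of 9 lower in GSC, 4 of 9 in NSC and 5 of 9 in MEF, with none higher. Over all genes, 10.2%, 10% and 10.9% were called lower in these comparisons. The GSC calls of Orc6, Cdt1 and Gmnn and the MEF call of Orc6 were each lost under some alternative given below. Orc1, the largest subunit of the origin recognition complex, read 8.95, 8.97, 9.12, 9.06 and 9.09 in gPS cells, 8.24, 7.99 and 8.10 in GSC, 9.17, 8.97 and 9.05 in ESC_like cells, 6.60, 6.48 and 6.27 in NSC, 7.25, 7.07 and 7.13 in MEF, and 9.39, 9.31 and 9.17 in ESC. NSC lies below every other group, with MEF next and GSC after it, while gPS, ESC_like and ESC lie close together on top. Orc1 was 7.17-fold lower in NSC than in ESC (log2 difference -2.84 (SE 0.11), adjusted p = 7.03e-15), with -2.14 in MEF and -1.18 in GSC. Its other probe set gave -1.41 for NSC minus ESC and 0.25 for NSC minus MEF, against -0.70 on the brightest, so that the order of NSC and MEF differs between probe sets.

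Orc5, another subunit of the complex, read 10.52, 10.33, 10.14, 10.25 and 9.82 in gPS cells, 8.76, 9.04 and 8.44 in GSC, 9.85, 9.94 and 9.70 in ESC_like cells, 9.13, 8.86 and 8.91 in NSC, 7.94, 7.81 and 7.90 in MEF, and 10.43, 10.47 and 10.33 in ESC. It was called in 5 of the 8 comparisons, more than any other member. Against ESC it was 5.77-fold lower in MEF, 3.17-fold in GSC and 2.72-fold in NSC, and GSC and NSC overlap. In gPS it was 2.76-fold higher than in GSC, with no overlap of the arrays.

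Orc4 stood apart from the rest of the complex, being highest in MEF on its brightest probe set. It read 8.95, 9.05, 9.02, 9.06 and 8.86 in gPS cells, 8.75, 8.90 and 8.45 in GSC, 8.93, 9.23 and 9.05 in ESC_like cells, 8.91, 8.71 and 8.60 in NSC, 9.42, 9.45 and 9.49 in MEF, and 8.94, 8.93 and 8.84 in ESC. Every MEF array lies above every other array, at a difference from ESC of 0.55 (SE 0.12) that did not reach 2-fold. Its other probe sets gave 0.12 to 0.62 for MEF minus ESC. For NSC minus MEF they gave -0.31 to 0.41, against -0.71 on the brightest, so that the order of NSC and MEF differs between probe sets. With probe sets that may share sequence left out, a dimmer probe set represented Orc4 and gave -1.48 for GSC minus ESC, a call that its brightest probe set did not make. Orc3 was the other exception, with means of 9.59 ± 0.08 in GSC and 9.38 ± 0.14 in gPS (SD, n = 3 and 5), against 8.60 ± 0.02 in ESC. Its GSC minus ESC difference, 0.98 (SE 0.11), reached 2-fold only without GSC replicate 3 (1.02). Its gPS minus ESC difference, 0.78 with a 95% interval of 0.58 to 0.98, was the largest of any member in that comparison. Both rest on the brightest probe set: the other 2, at mean levels of 6.25 and 4.67, gave -0.39 to -0.26 for gPS minus ESC and -0.14 to -0.12 for GSC minus ESC.

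Orc6, the smallest subunit of the complex, averaged 10.33 ± 0.34 in gPS, 9.38 ± 0.05 in GSC, 9.93 ± 0.20 in ESC_like, 9.49 ± 0.12 in NSC, 9.39 ± 0.03 in MEF and 10.47 ± 0.09 in ESC. It was called lower than ESC in GSC (-1.09 (SE 0.16)) and MEF (-1.08 (SE 0.16)), and both calls were lost, at -0.78 and -0.70, with the chromosome 8 shift taken off. Orc2 was called nowhere, with -0.76 for MEF minus ESC and -0.63 for NSC minus ESC.

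Cdc6, the ATPase that helps to load the helicase, read 10.09, 9.97, 9.81, 9.89 and 9.56 in gPS cells, 8.25, 8.40 and 8.50 in GSC, 9.92, 10.09 and 10.06 in ESC_like cells, 9.02, 8.92 and 8.72 in NSC, 8.98, 8.77 and 8.90 in MEF, and 9.75, 9.68 and 9.65 in ESC. GSC is the lowest group, NSC and MEF overlap above it, and the 3 pluripotent groups lie near each other on top. Cdc6 was 2.79-fold higher in gPS than in GSC (adjusted p = 4.39e-10). Cdt1, its partner in loading, read 12.08, 12.56, 12.49, 12.43 and 12.19 in gPS cells, 11.80, 11.91 and 11.87 in GSC, 12.31, 12.38 and 12.25 in ESC_like cells, 11.34, 11.30 and 11.31 in NSC, 10.50, 10.48 and 10.45 in MEF, and 12.90, 12.96 and 12.97 in ESC. Here ESC lies above every other array and MEF below. The difference from ESC was -2.47 in MEF, -1.63 in NSC and -1.09 in GSC, and the last was lost, at -0.77, with the chromosome 8 shift taken off. For GSC minus ESC, its second brightest probe set, at a mean level of 9.88, gave -1.07, and the remaining dim one, at 3.06, gave 0.13; the average of all was -0.67 and not called.

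Gmnn (geminin), which binds Cdt1 and blocks loading a second time in the same cycle, followed a like order. It read 11.16, 10.85, 10.95, 11.00 and 10.82 in gPS cells, 9.77, 10.22 and 10.20 in GSC, 11.06, 11.24 and 10.92 in ESC_like cells, 9.52, 9.31 and 9.39 in NSC, 9.28, 9.07 and 9.17 in MEF, and 11.02, 11.05 and 11.12 in ESC. NSC and MEF were lower than ESC by -1.66 (SE 0.13) and -1.89 (SE 0.13). The GSC call, a difference of -1.001, stood at the 2-fold line and was lost without GSC replicate 1, the array with the high 3′ signal (-0.86), without ESC replicate 3 (-0.97) and with array weights (-0.93).

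Among the genes that activate the helicase, Gins2, a subunit of the GINS complex, was lowest in GSC by a wide margin. It read 8.96, 8.71, 8.26, 7.86 and 8.47 in gPS cells, 6.51, 6.44 and 6.76 in GSC, 8.49, 8.45 and 8.49 in ESC_like cells, 9.14, 9.06 and 9.08 in NSC, 8.57, 8.50 and 8.57 in MEF, and 9.03, 9.02 and 8.91 in ESC. No GSC array reaches any other array, and gPS has the widest spread of the groups, with replicate 4 lowest. Gins2 was 3.68-fold higher in gPS than in GSC (log2 difference 1.88 (SE 0.16), adjusted p = 2.88e-09) and 5.33-fold lower in GSC than in ESC. Its other probe set gave 2.25 and -2.58 for these differences.

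Other subunits of the same complex did not share that pattern. Gins3 read 6.81, 7.19, 6.73, 6.71 and 6.53 in gPS cells, 7.37, 7.20 and 7.24 in GSC, 6.34, 6.23 and 6.37 in ESC_like cells, 7.37, 6.99 and 6.97 in NSC, 6.59, 6.45 and 6.66 in MEF, and 7.48, 7.30 and 7.27 in ESC. ESC_like lies below all other arrays, and its difference from ESC, -1.04 (SE 0.14) at an adjusted p of 1.14e-05, was the only call of that comparison. It was lost, at -0.70, with the chromosome 8 shift taken off, at -0.97 without ESC replicate 1 and at -0.99 without ESC_like replicate 2. Gins1 was low in MEF, with 7.88 ± 0.09 against 9.78 ± 0.04 in ESC (SD, n = 3 each), on a probe set whose partner is dim and gave -0.03. With both averaged, the MEF minus ESC difference was -0.96 and NSC minus MEF 0.57, and neither was called. Gins4 was -1.37 for MEF minus ESC, and with the chromosome 8 shift taken off the difference was -0.99.

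Mcm10, which links the active helicase to the primase and polymerase alpha, read 9.78, 9.48, 9.75, 9.60 and 9.83 in gPS cells, 8.80, 8.81 and 8.60 in GSC, 9.51, 9.38 and 9.57 in ESC_like cells, 8.17, 7.79 and 7.84 in NSC, 7.76, 7.47 and 7.40 in MEF, and 9.82, 9.88 and 9.64 in ESC. The 3 pluripotent groups lie on top, GSC apart in the middle, and NSC and MEF at the bottom. Against ESC the differences were -2.24 (SE 0.13) in MEF, -1.85 (SE 0.13) in NSC and -1.05 (SE 0.13) in GSC. The GSC call was lost, at -0.98 and -0.99, without GSC replicate 3 or ESC replicate 2, and at -0.82 with all probe sets averaged, which gave -1.48 in MEF and -1.16 in NSC, both called. With probe sets that may share sequence left out, NSC minus ESC was -0.76 and not called, MEF minus ESC was -1.36, and gPS minus GSC was 1.21 and called. Cdc45, which completes the active helicase, was 7.39 ± 0.07 in MEF against 8.41 ± 0.05 in ESC, a difference of -1.02 (SE 0.11) that fell short of 2-fold without MEF replicate 3 (-0.98) or ESC replicate 1 (-0.99), and was -0.58 with all probe sets averaged.

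The polymerases split in GSC by subunit. Pole, the catalytic subunit of polymerase epsilon that copies the leading strand, read 9.47, 9.64, 9.41, 9.37 and 9.55 in gPS cells, 10.56, 10.26 and 10.35 in GSC, 9.09, 8.93 and 9.17 in ESC_like cells, 8.41, 8.31 and 8.49 in NSC, 7.74, 7.60 and 7.59 in MEF, and 9.68, 9.65 and 9.22 in ESC. All GSC arrays lie above all others, and MEF arrays below all others. Against ESC the difference was -1.87 (SE 0.13) in MEF and -1.11 (SE 0.13) in NSC, both called, and 0.87 (SE 0.13) in GSC, which fell short of 2-fold. Pole2, the accessory subunit of the same enzyme, went the other way in GSC, with 8.14 ± 0.12 in GSC against 9.38 ± 0.02 in ESC, a call of -1.23 (SE 0.17). In MEF, Pole2 was -1.02 against ESC and lost its call, at -0.97, without MEF replicate 1. With all probe sets averaged, Pole2 was called in neither, at -0.85 in GSC and -0.69 in MEF.

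Pola1, the catalytic subunit of polymerase alpha, read 8.98, 9.08, 9.11, 8.98 and 8.81 in gPS cells, 8.14, 8.10 and 8.06 in GSC, 8.95, 8.88 and 8.80 in ESC_like cells, 9.13, 8.89 and 9.05 in NSC, 8.23, 8.11 and 8.12 in MEF, and 9.51, 9.64 and 9.63 in ESC. GSC and MEF overlap at the bottom and ESC lies above all other arrays. It was 2.82-fold lower in GSC than in ESC (adjusted p = 8.38e-11) and 2.71-fold lower in MEF. Its only other probe set is dim and near 0 in both comparisons, and the average of both was called in neither, at -0.70 in GSC and -0.76 in MEF. Pold1, the catalytic subunit of polymerase delta, was -1.87 in MEF and -1.01 in NSC against ESC. In GSC it was 10.82 ± 0.03, above every array of the other groups, with 0.60 against ESC, short of 2-fold, and 1.08 and called when probe sets that may share sequence were left out. The NSC call for Pold1 was lost, at -0.96 to -0.99, without NSC replicate 2, NSC replicate 3 or ESC replicate 2, and at -0.998 with centring on the array median. Pola2 and Prim1, which hold polymerase alpha to the primase and make the RNA primer, were called lower in MEF than in ESC, at -1.23 and -1.05, but Pola2 was -0.55 and not called with all probe sets averaged, and the call of Prim1 was lost, at -0.999, without MEF replicate 2. Pold2, Pold3 and Prim2 were called in no comparison. Of these, Pold2 and Pold3, accessory subunits of polymerase delta, were -0.60 and -0.61 for MEF minus ESC. For NSC minus ESC, Pold3 was -0.66 on its brightest probe set, and its other probe sets gave -1.02 to -1.01, past 2-fold. Prim2, the large primase subunit, had its highest mean in GSC, 9.51 ± 0.14 against 9.25 ± 0.05 in ESC, with -0.59 for gPS minus GSC. The order of GSC and ESC rests on the brightest probe set (0.26 for GSC minus ESC), since the others gave -0.27 to -0.12.

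In the clamp and its loader, Rfc5 and Rfc4 took opposite sides. Rfc5, a small subunit of the loader that opens the clamp, read 11.13, 10.86, 11.07, 10.90 and 11.27 in gPS cells, 9.92, 9.85 and 9.88 in GSC, 10.82, 10.59 and 10.71 in ESC_like cells, 9.16, 9.07 and 9.07 in NSC, 8.95, 8.75 and 8.87 in MEF, and 10.96, 10.95 and 10.79 in ESC. The 3 pluripotent groups again lie on top, GSC apart in the middle, and NSC and MEF at the bottom. It was 2.24-fold higher in gPS than in GSC (adjusted p = 3.01e-09), and against ESC it was 4.13-fold lower in MEF and 3.48-fold lower in NSC. Its GSC minus ESC difference, -1.02, was -0.99 without ESC replicate 1 or ESC replicate 2 and then not called. Rfc4, another small subunit, was 10.97 ± 0.11 in GSC, against 9.94 ± 0.02 in ESC, a call of 1.03 (SE 0.11) that was lost, at 0.97, without GSC replicate 2 and, at 0.95, when each array was centred on its median.

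Rfc3, also of the loader, read 9.31, 9.28, 8.90, 9.10 and 8.85 in gPS cells, 9.21, 9.53 and 9.45 in GSC, 8.85, 8.81 and 8.80 in ESC_like cells, 9.36, 9.41 and 9.47 in NSC, 8.32, 8.12 and 8.04 in MEF, and 9.19, 9.03 and 8.94 in ESC. NSC lies with GSC on top, and MEF is lowest. It was 2.38-fold higher in NSC than in MEF (adjusted p = 7.41e-08). Pcna, the clamp itself, was 12.19 ± 0.18 in GSC and 12.30 ± 0.10 in MEF, against 13.28 ± 0.02 in ESC and 13.31 ± 0.02 in NSC (SD, n = 3 each). Its GSC minus ESC difference was -1.08 (SE 0.10), and not called without GSC replicate 1 (-0.99) or with quantile normalization (-0.98). In NSC it was 2.02-fold higher than in MEF, and 0.97 and not called without MEF replicate 2 or with quantile normalization. Rfc2 was called in no comparison, and Rfc1, the large subunit, only in MEF minus ESC (-1.11).

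RPA, which coats single-stranded DNA as a complex of 3 subunits, differed by subunit. Rpa2, the middle subunit, read 10.44, 10.12, 10.43, 10.24 and 10.49 in gPS cells, 11.34, 11.35 and 11.40 in GSC, 10.16, 10.04 and 10.08 in ESC_like cells, 9.60, 9.57 and 9.47 in NSC, 8.80, 8.70 and 8.64 in MEF, and 10.23, 10.29 and 10.19 in ESC. GSC lies above and MEF below every other array. It was the only member called lower in gPS than in GSC, at -1.01 (SE 0.09), and this call stood at the line: it was lost without gPS replicate 2 (-0.96), gPS replicate 4 (-0.99) or GSC replicate 3 (-0.997), and with centring on the array median (-0.99). GSC exceeded ESC 2.18-fold, and MEF was 2.88-fold lower than ESC. Rpa1, the large subunit, had the narrowest range of group means of all 43 members, 0.38 units. It read 12.36, 12.01, 12.18, 12.27 and 11.86 in gPS cells, 11.96, 11.95 and 12.01 in GSC, 12.35, 12.41 and 12.30 in ESC_like cells, 12.24, 12.07 and 12.11 in NSC, 12.05, 12.06 and 12.02 in MEF, and 12.23, 12.26 and 12.30 in ESC. All 20 arrays lie between 11.86 and 12.41, and no comparison called it. Rpa3, the small subunit, was 10.11 ± 0.21 in gPS, 10.12 ± 0.16 in GSC and 10.12 ± 0.09 in ESC_like, against 9.55 ± 0.08 in ESC (SD, n = 5, 3, 3 and 3). It was also called nowhere, with 0.56 for gPS minus ESC.

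Fen1 and Lig1 trim and seal the fragments of the lagging strand. Fen1 had the second narrowest range, 0.72, and read 11.08, 11.14, 11.09, 11.03 and 10.80 in gPS cells, 10.94, 10.98 and 10.98 in GSC, 11.02, 11.00 and 11.00 in ESC_like cells, 11.01, 10.94 and 11.06 in NSC, 10.65, 10.57 and 10.69 in MEF, and 11.33, 11.31 and 11.43 in ESC. Every MEF array was lowest and every ESC array highest, at less than 2-fold. Lig1 read 10.54, 10.37, 10.72, 10.61 and 11.11 in gPS cells, 10.86, 10.24 and 10.45 in GSC, 10.46, 10.43 and 10.50 in ESC_like cells, 9.97, 9.97 and 9.88 in NSC, 8.64, 8.61 and 8.78 in MEF, and 10.82, 10.82 and 10.53 in ESC. MEF lies more than 1 unit below all other arrays. Lig1 was 4.13-fold lower in MEF than in ESC (adjusted p = 6.56e-10) and 2.4-fold higher in NSC than in MEF.

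Ribonucleotide reductase, the enzyme that makes deoxynucleotides, had the largest difference of the whole set. Rrm2, its small subunit, whose protein is known to accumulate in S phase, read 12.30, 12.25, 11.90, 12.11 and 11.54 in gPS cells, 8.40, 8.86 and 8.36 in GSC, 11.82, 12.00 and 11.81 in ESC_like cells, 12.29, 12.28 and 12.24 in NSC, 12.24, 12.24 and 12.30 in MEF, and 11.86, 11.94 and 12.01 in ESC. The 3 GSC arrays lie between 8.36 and 8.86, and the other 17 arrays between 11.54 and 12.30. Rrm2 was 11.2-fold higher in gPS than in GSC (log2 difference 3.48 (SE 0.14), adjusted p = 2.95e-14), and 10.5-fold lower in GSC than in ESC (-3.40 (SE 0.16)). Its other probe sets gave 3.52 to 3.61 for gPS minus GSC. In MEF, where most of the set was low, Rrm2 was 0.33 relative to ESC.

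Rrm1, the large subunit, did not share this pattern. Its means were 10.71 ± 0.24 in gPS, 10.93 ± 0.39 in GSC, 10.10 ± 0.08 in ESC_like, 11.20 ± 0.10 in NSC, 11.24 ± 0.04 in MEF and 10.61 ± 0.07 in ESC (SD, n = 5 for gPS and 3 for the others). No comparison called it, and over the 20 arrays its correlation with Rrm2 was -0.03. Rrm2b, the alternative small subunit known for its induction by p53, was 3.27-fold higher in NSC and 2.99-fold higher in MEF than in ESC, and -0.04 for gPS minus GSC.

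**Figure D4:**
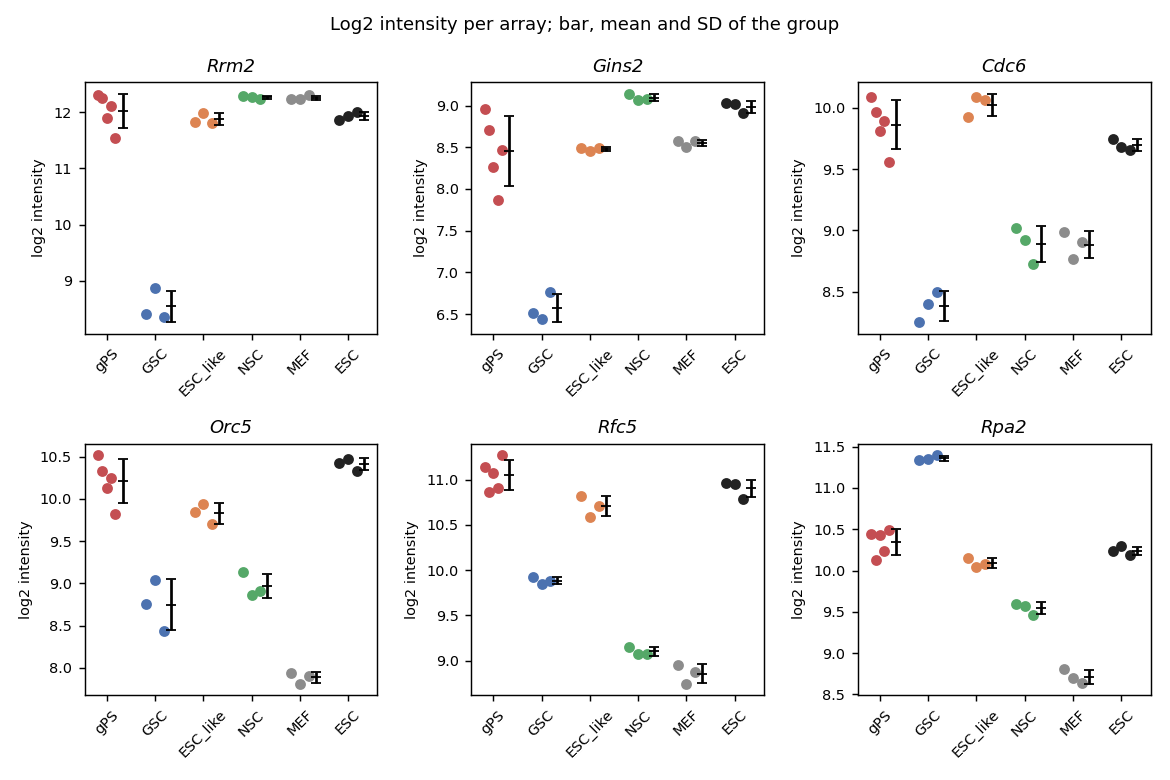
Log2 intensity of the 6 genes called between gPS and GSC on every array (points, by group), with the mean and SD of each group as a bar; the vertical axes differ and do not start at 0. Rrm2, Gins2 and Cdc6 are lowest in GSC, and Rpa2 is highest there.

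Set against ESC, replication genes in gPS cells differed by less than 2-fold on their brightest probe sets. None of the 43 members was called, and 18 had an unadjusted p under 0.05, of which 7 were higher (16.3%, against 19.4% of all genes) and 11 lower (25.6%, against 15.8%). At an adjusted p under 0.05 with no fold limit, 5 members were higher (11.6%, against 13.6% of all genes) and 9 lower (20.9%, against 11.4%). For all 43 members the 95% interval of the difference lay within 1 log2 unit of 0, the outermost bounds being -0.87 for Gins2 and 0.98 for Orc3. The largest falls were Pola1 at -0.60 (SE 0.09) and Cdt1 at -0.60 (SE 0.10). The next were Gins3 at -0.55, Gins2 at -0.53 and Gins4 at -0.53, which lie with Cdt1 on chromosome 8. Genes of that chromosome as a body were lower than in ESC by 0.19 to 0.26 in gPS replicates 1, 3, 4 and 5. The other probe set of Gins3, at a mean level of 6.02, gave -1.02 for gPS minus ESC, past 2-fold. Against ESC_like, no member was called either, and 22 had an unadjusted p under 0.05, of which 20 were higher in gPS (46.5%, against 22.6% of all genes) and 2 lower (4.65%, against 17.8%). At an adjusted p under 0.05 with no fold limit, 17 members were higher in gPS (39.5%, against 14.8% of all genes) and none lower, against 14.5%. The largest was Pola2, at 0.88 (SE 0.13) with a 95% interval of 0.62 to 1.14. The median over members was 0.21, against 0.09 over all genes, and the fibroblast list was lower in gPS than in ESC_like for 10 of 10 genes; its part in these differences was not tested.

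Over the 20 arrays, a member's correlation with the median of the other members had a median of 0.75 and exceeded 0.8 for 19 of 43. It was below 0 for 4 members, Rrm1 (-0.59), Orc4 (-0.47), Rrm2 (-0.20) and Gins2 (-0.10). These are descriptions, since arrays of a group share their cells and the MEF arrays lie at the low end for most genes. Members with the E2F letters had a median MEF minus ESC difference of -1.44 and 10 of 15 were called lower. Those with a promoter but without the letters had -0.997 and 10 of 20 called lower, where 10.9% of all genes were called lower. In gPS minus GSC the medians were 0.26 with the letters and 0.35 without.

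Genes that work beside the fork were counted from lists chosen by function. Of 12 genes of origin firing and the checkpoint, MEF had 6 called lower than ESC and none higher. The steepest were Timeless, which protects the fork, at -2.24, Ticrr (treslin), which helps Cdc45 onto the helicase, at -1.88, and the checkpoint kinase Chek1 at -1.54. Clspn and Donson were 0.23 and 0.11 and were not called. In gPS minus GSC, 2 of the 12 were called higher and 1 lower, not far from the shares of all genes. Ticrr was 6.26-fold higher in gPS, with 9.17 ± 0.37 in gPS against 6.52 ± 0.20 in GSC (SD, n = 5 and 3). The kinase that fires origins changed in both directions by subunit, with Cdc7, the catalytic one, 2.52-fold lower in gPS and Dbf4, its activator, 2.04-fold higher.

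Of 16 other replication subunits, MEF had 9 called lower than ESC and 1 higher. Rnaseh2a, the catalytic subunit of an enzyme that removes ribonucleotides from DNA, was -1.79, Atad5, which takes the clamp off, was -1.79, and the nuclease Dna2 was -1.74. Pold4, the small subunit of polymerase delta, was higher, at 1.69. Of 11 nucleotide supply genes, MEF had 5 called lower and 2 higher, led by Shmt1, of the folate pathway that feeds thymidylate synthesis, at -2.66. In gPS minus GSC, Slc29a1, a nucleoside transporter, was 5.23-fold higher and Samhd1, which breaks down deoxynucleotides, 2.03-fold lower, while Rrm2b and Dctpp1 were -0.04 and 0.09.

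Of 8 genes of replication-coupled chromatin, 6 were called lower in MEF than in ESC, led by the remodeller Hells (-2.13) and the histone chaperone Nasp (-1.66). Hells was also the only call of this list in NSC minus ESC, at -2.23. Against GSC, gPS had Nasp alone called, 2.12-fold higher.

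Among 13 E2F and pocket protein genes, gPS had 3 called higher and 2 lower than GSC, against 9.1% and 10.9% of all genes. E2f8, a repressor of the family, averaged 8.77 ± 0.27 in gPS against 5.72 ± 0.23 in GSC, 8.3-fold higher (adjusted p = 2.10e-13). E2f6, another repressor, was 4.8-fold lower in gPS, at 7.75 ± 0.20 against 10.02 ± 0.07 in GSC. Rb1, the founding pocket protein, was 4.79-fold lower in gPS, at 7.17 ± 0.44 against 9.43 ± 0.41 in GSC (SD, n = 5 and 3).

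Mitosis genes work later in the cycle. Of 21 measured, 7 were called higher in gPS than in GSC and none lower, against 9.1% and 10.9% of all genes. The median difference was 0.68. The largest were Birc5 (survivin) at 3.58-fold, Plk1 at 3.29-fold, Aurka at 2.94-fold and Cdk1 at 2.62-fold. In MEF 6 of 21 were called lower than in ESC, led by Bub1 at -1.78, while Aurka and Mki67 were 0.01 and -0.08. In NSC, Bub1 (-1.45) and Ccnb2 (-1.26) were called lower than in ESC, and Mki67, a marker of cycling cells, higher at 1.18. The list median by array was 10.17 to 10.39 in gPS, 9.58 to 9.72 in GSC, 9.95 to 10.01 in ESC_like, 9.70 to 9.88 in NSC, 9.26 to 9.50 in MEF and 10.02 to 10.15 in ESC.

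**Figure D5:**
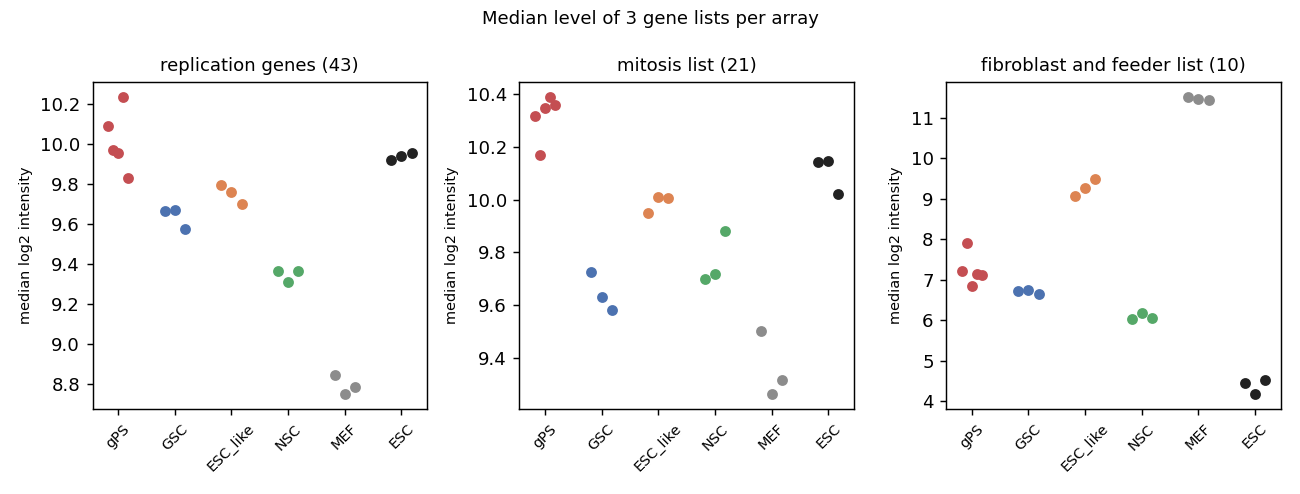
Median log2 intensity per array of the 43 replication genes (left), 21 mitosis genes (centre) and 10 fibroblast and feeder genes (right), by group; the vertical axes differ and do not start at 0. MEF is lowest for the replication and mitosis lists and highest for the fibroblast list.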

How the data were processed

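Total RNA from 20 samples of mouse cells was labelled and measured on Affymetrix arrays, with a one-cycle kit per the labels' protocols. The authors deposited log2 intensities, 1 for each probe set and array, and the submitters' processing notes name RMA as the tool, with no version. The sources used here do not state whether all arrays were processed together. The arrays hold 45101 probe sets, of which 64 are controls and were dropped; 1 gene symbol was listed for 34945, several for 932 and none for 9160, and symbols were updated through gene identifiers for 34741. With the brightest probe set taken for each, 18193 genes were tested. Several probe sets were listed for 9010 of these and for 32 of the 43 members.

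Group means were fitted with lmFit and eBayes of limma 3.58.1 under R 4.3.3, with no covariate and no filter on low values. The fit was tested on simulated data. Tables, promoter searches and plots used Python 3.11.15 with pandas 2.3.3, numpy 2.4.6 and, for plots, matplotlib 3.10.9. Promoters were matched by symbol. Array number limits the precision. The members, the companion lists and the marker lists were chosen with earlier results of these data known. Every array value is given for members called in gPS minus GSC, the 6 widest and 3 narrowest ranges of group means, and, in each other comparison, the largest called differences, at most 4. From each companion list the 4 largest called differences and the 2 smallest not called could be named. Lists and roles are described by counts, with no test of their own. Alternatives covered scaling, probe set choice, dim genes, array weights, variance trend, fold threshold, groups in the fit, each array left out, a block for replicate number and, chosen after seeing the data, the shift of chromosome 8 and a pair of gPS arrays.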

Additional observations from a re-analysis of the deposited data

Results flagged for a closer look

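On gPS replicate 1, Orc2, a subunit of the origin recognition complex, read 9.91, against 9.28 to 9.46 on the other 4 gPS arrays. Pcna, the sliding clamp, read 13.21 on the same array, against 12.92 to 12.98 on the other 4. In both, the gap to the nearest array exceeded Dixon's 95% critical value for 5 samples. About 1 in 20 groups passes that value by chance, and 43 members were tested in gPS. Neither gene was called in a comparison with gPS, with or without that array.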

How the results depend on the processing

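No called difference of a member turned its sign under the alternatives run. Quantile normalization raised the members called in gPS minus GSC to 10, with Orc1, Orc6, Mcm10 and Pole2 added. A threshold of 1.5-fold gave 19 members in gPS minus GSC, 3 in gPS minus ESC, 21 in GSC minus ESC and 3 in gPS minus ESC_like. It gave 5 in ESC_like minus ESC, 19 in NSC minus ESC, 38 in MEF minus ESC and 19 in NSC minus MEF. The share of all genes at 1.5-fold was not counted, so these numbers cannot be set against a background. The single call of ESC_like minus ESC, Gins3, gave 0 calls without ESC replicate 1, without ESC_like replicate 2 and with the chromosome 8 shift removed, an alternative chosen after seeing the data. With each array left out in turn, the counts ranged from 5 to 8 in gPS minus GSC, 13 to 15 in GSC minus ESC, 0 to 1 in ESC_like minus ESC, 8 to 10 in NSC minus ESC, 23 to 24 in MEF minus ESC, 6 to 7 in NSC minus MEF and 34 to 37 over the 6 groups, and stayed at 0 for gPS against ESC and against ESC_like. Averaging all probe sets of a gene gave 19 in MEF minus ESC, with 18 of the reported calls kept, and 12 in GSC minus ESC, with 11 kept. Replicate numbers are shared between groups, and correlations of same-numbered deviations were between -0.17 and 0.27. They were above 0.1 for some pairs of arrays but not for all. With 3 to 5 arrays in a group, these correlations cannot show whether same-numbered arrays shared a culture, a day or a batch. A replicate block gave 8 members in gPS minus GSC, 0 in gPS minus ESC, 15 in GSC minus ESC, 0 in gPS minus ESC_like, 1 in ESC_like minus ESC, 9 in NSC minus ESC, 24 in MEF minus ESC, 7 in NSC minus MEF and 35 over the 6 groups. The median difference over members in gPS minus ESC took either sign, from -0.07 to 0.05, and those of the other comparisons kept theirs. The causes were not tested.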
